A study of Mus musculus with 12 samples.

Results

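The genes followed here mark blood-derived and border macrophages in mouse tissue. The 10 genes, of 54838 in the count files, were taken by symbol: the monocyte genes Ly6c2, Plac8 and Chil3, the arginine enzymes Arg1 and Nos2, and the border macrophage genes Mrc1, Cd163, Lyve1, F13a1 and Ms4a7. All 10 passed the filter on low counts and were among 31109 genes tested.

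The study asked how Tet1 loss in the oligodendrocyte lineage changes the transcriptome of repairing spinal cord. RNA came from the spinal cord of mice at P60, either from a lysolecithin lesion at 4 dpl (days post-lesion) or from the opposite, unlesioned side. The injection was made in the ventrolateral white matter. Lysolecithin is a detergent that strips myelin. Controls were Olig1+/+;Tet1fl/fl and mutants Olig1cre/+;Tet1fl/fl, so floxed Tet1 alleles were carried by both genotypes, and Cre was driven from the Olig1 locus, which is active in the oligodendrocyte lineage. Each of the 4 groups had 3 libraries. The tissue was enriched for oligodendroglia on a density gradient and was not sorted, so a lower level of a gene cannot be told apart from fewer cells of the type that makes it.

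Monocytes enter injured nervous tissue from blood and become macrophages, while resident microglia and the macrophages of the meninges and perivascular spaces are already in place. Macrophages that meet bacterial products or interferon make nitric oxide from arginine through Nos2, and those that clear debris or meet interleukin-4 use Arg1 to break arginine down instead. After demyelination, macrophages remove myelin debris before new myelin is laid down.

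Libraries held 34805086 to 67251544 counted reads. Tet1 was measured over the whole gene and not over its floxed exon. It ranged from 9.94 to 21.5 CPM (counts scaled to library size by TMM) across the 12 libraries. Its mean was 16.1 ± 1.93 (SD, n = 3) in unlesioned controls and 12.8 ± 3.28 (SD, n = 3) in unlesioned mutants. At 4 dpl it was 12.1 ± 0.39 (SD, n = 3) in controls and 15.2 ± 5.55 (SD, n = 3) in mutants. Tet1 levels therefore gave no check of the deletion. Oligodendrocyte markers took 1.70% to 5.99% of counts, and neutrophil markers took 2.05% to 14.03% and erythroid markers 1.10% to 11.4%. Over all genes, the median log2 fold change after lesion was -0.36 in controls and -0.18 in mutants, and with RLE size factors it was -0.42 and -0.32. Called genes had p under 0.01 and adjusted p under 0.05 in edgeR's quasi-likelihood test.

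Per length of transcript, Chil3 was the most abundant of the 10 genes, at a mean of 1513 RPKM over the groups. Ly6c2 followed at 274 RPKM, Plac8 at 95.8 RPKM, Arg1 at 60.2 RPKM, F13a1 at 34.7 RPKM and Ms4a7 at 14.4 RPKM. Mrc1 reached 1.14 RPKM, Lyve1 0.597 RPKM, Nos2 0.586 RPKM and Cd163 0.388 RPKM. Only the range of Chil3 over the 12 libraries did not overlap that of the next gene. Within a library, Chil3 lay above Ly6c2, Ly6c2 above Plac8, F13a1 above Ms4a7 and Ms4a7 above Mrc1 in all 12, Plac8 above Arg1 in 9, Mrc1 above Lyve1 in 8 and Lyve1 above Nos2 in 9. Arg1 lay above F13a1 in 5 of 12 and Nos2 above Cd163 in 5 of 12, so those neighbours had no set order. By mean, Arg1 lay above F13a1 in both control groups, in the unlesioned one only through replicate 1, and below it in both mutant groups. In unlesioned mutants Arg1 was at 1.07 ± 0.576 RPKM (SD, n = 3), against 145.2 ± 75.8 RPKM in lesioned controls.

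**Figure D1:**
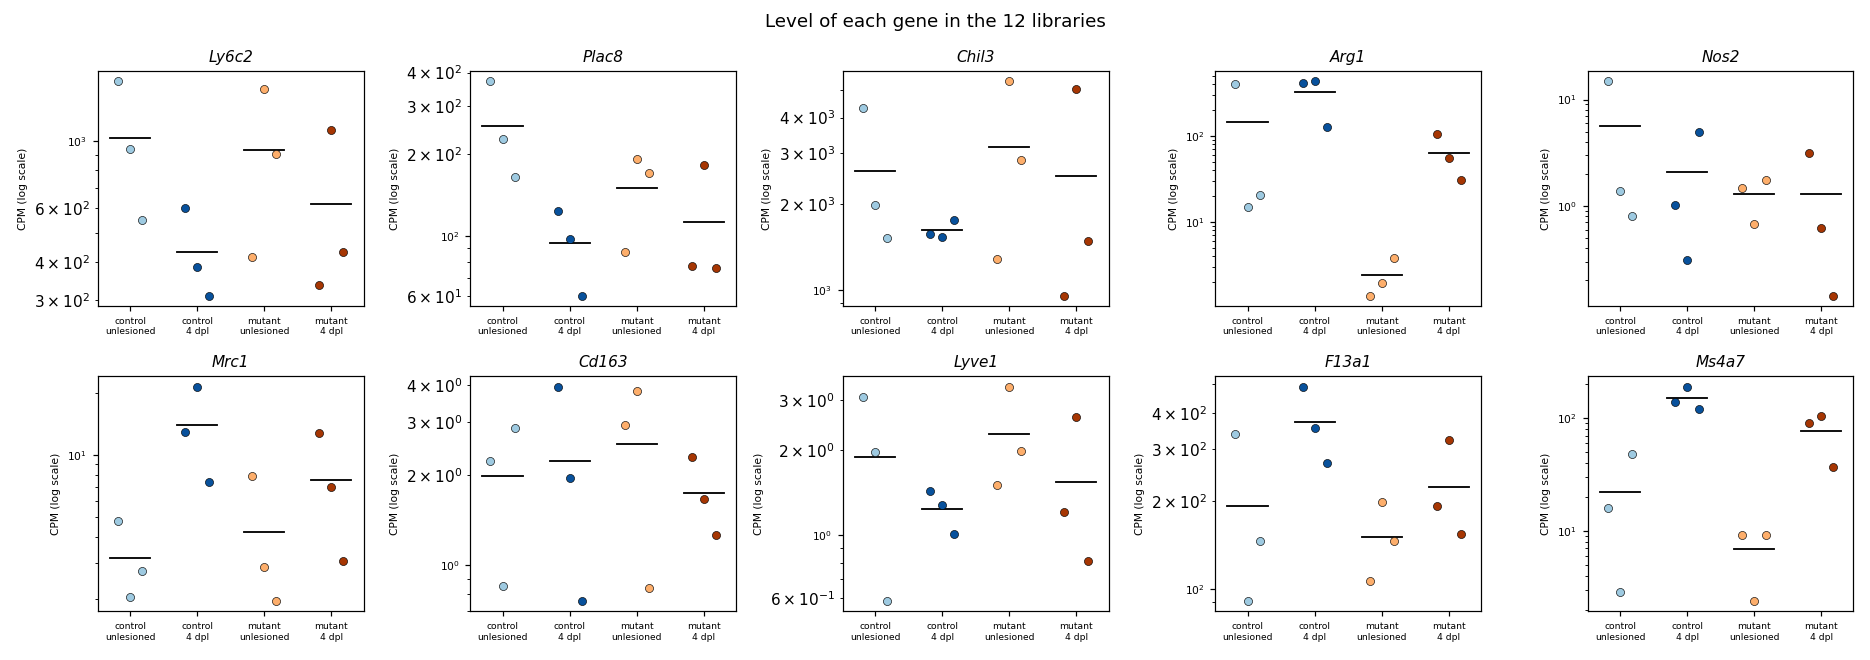
Levels of the 10 genes in CPM on log axes, with a point for each library, coloured by group, and a line at the group mean. Arg1 spans 1.38 to 432 CPM, with unlesioned control replicate 1 at 407 CPM beside its 2 partners at 15.0 and 20.3 CPM.

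In controls, Mrc1 and Ms4a7 rose after lesion and Plac8 fell, so 3 of the 10 genes were called. Among all genes, 5.12% were called higher and 5.01% lower in that comparison. In mutants, edgeR called 0 of the 10 genes, where 0.135% of all genes were called. At an unadjusted p under 0.05, 2 of the 10 passed in mutants, Arg1 and Ms4a7, against 33.8% of all genes. DESeq2, which gave no p for Arg1 in any comparison, called 1 of the other 9 (Ms4a7), against 10.4% of all genes, and limma voom called 2 of the 10 (both), against 21.9%. Averaged over the genotypes, Mrc1, Ms4a7 and Arg1 rose and Plac8 fell, against 14.2% of genes called higher and 18.6% called lower.

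**Figure D2:**
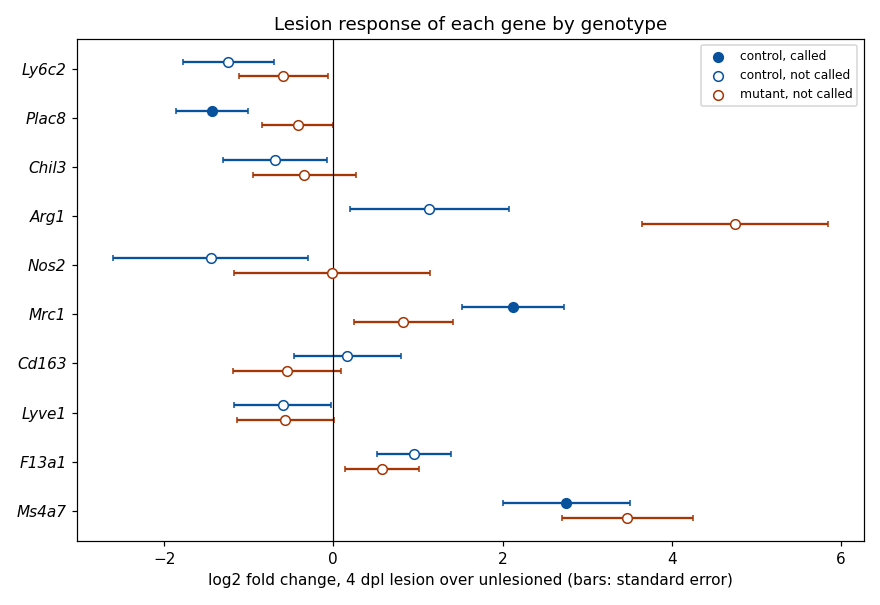
Log2 fold change at 4 dpl over the unlesioned side for each gene, with standard errors, in controls (blue) and mutants (brown). Filled points were called and open points were not. Arg1 shows 1.13 in controls and 4.74 in mutants.

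Ms4a7 (ENSMUSG00000024672, chr19:11321039-11336146, minus strand, mm10), a membrane protein of the MS4A family that marks macrophages other than microglia, rose after lesion over both genotypes. Its level was 16.0, 2.89 and 47.8 CPM in the unlesioned control libraries and 140.2, 189.7 and 119.7 CPM in the lesioned ones. In mutants it was 9.19, 2.40 and 9.15 CPM without a lesion and 90.7, 103.4 and 36.8 CPM with one. The lesioned libraries lay above the unlesioned ones within each genotype. The log2 fold change was 2.75 (SE 0.75, edgeR adjusted p = 0.0409) in controls, 3.48 (SE 0.78, adjusted p = 0.0522) in mutants and 3.12 (SE 0.54, adjusted p = 0.00298) over both. In controls the call was lost without unlesioned control replicates 1 or 2, lesioned control replicates 1 or 2, or unlesioned mutant replicate 3, where the adjusted p reached 0.102, and with only the groups compared it was lost at 0.0670. The pooled call was kept in all 12 fits with a library left out. In mutants it was called without unlesioned control replicates 1 or 2 or unlesioned mutant replicate 1. Of 8 markers of resident microglia, 6 rose over both genotypes, against 14.2% of all genes. With a library left out, where 3326 of 32613 to 6010 of 33892 genes rose, 4 to 8 of these markers rose. Their summed level went from 1629 to 3463 CPM in unlesioned controls to 5109 to 9149 CPM in lesioned ones, and from 1857 to 5917 CPM to 5468 to 8186 CPM in mutants. Ms4a7 per unit of that sum was 0.00716 ± 0.00610 (SD, n = 3) in unlesioned and 0.0224 ± 0.00808 in lesioned controls. In mutants it was 0.00179 ± 0.00065 and 0.0119 ± 0.00662. The control ranges overlapped, with unlesioned replicate 3 at 0.0138 and lesioned replicate 3 at 0.0131. For Mrc1 the ratio was 0.00127 ± 0.00049 in unlesioned and 0.00212 ± 0.00116 in lesioned controls. In mutants the Mrc1 ratio was 0.00114 ± 0.00053 and 0.00110 ± 0.00056. The Mrc1 ranges overlapped within each genotype.

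Mrc1 (ENSMUSG00000026712, chr2:14229392-14332057, plus strand) encodes the mannose receptor, which takes up glycoproteins and is a hallmark of perivascular and meningeal macrophages. It was at 4.77, 2.06 and 2.74 CPM in unlesioned controls and 12.97, 21.4 and 7.37 CPM at 4 dpl. In mutants the values were 7.94, 2.87 and 1.97 CPM, and 12.7, 6.98 and 3.06 CPM. The control groups did not overlap, and the mutant groups did. The log2 fold change was 2.12 (SE 0.60, edgeR adjusted p = 0.0445) in controls, 0.83 (SE 0.58, adjusted p = 0.314) in mutants and 1.48 (SE 0.42, adjusted p = 0.0155) over both. The difference between genotypes, -1.29 (SE 0.82, adjusted p = 0.9999), did not pass. Leaving out any of unlesioned control replicates 2 or 3, lesioned control replicates 1 or 2, unlesioned mutant replicate 3 or lesioned mutant replicate 2 ended the control call, with an adjusted p of up to 0.140, and lesioned control replicate 2 or lesioned mutant replicate 1 ended the pooled one. With at least 10 counts in every library the pooled change was 1.23 and p was 0.0103, just past the limit for a call.

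F13a1 (ENSMUSG00000039109, chr13:36867178-37050244, minus strand), the A subunit of coagulation factor XIII, is made by monocytes and border macrophages. Its levels were 339, 90.9 and 145.1 CPM in unlesioned controls and 491, 354 and 270.3 CPM after lesion. In mutants they were 106, 198 and 145.5 CPM, then 193, 323 and 154 CPM. The log2 fold change was 0.95 (SE 0.44, edgeR adjusted p = 0.144) in controls and 0.57 (SE 0.44, adjusted p = 0.353) in mutants. Without unlesioned control replicate 1, at 339 CPM, the control value was 1.68 and was called, with an adjusted p of 0.0118. Blocked by the replicate number in the labels, it was 1.13 and was called, with an adjusted p of 0.0361.

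Cd163 lies at chr6:124304656-124330527 (ENSMUSG00000008845) and Lyve1 at chr7:110850607-110863239 (ENSMUSG00000030787). Cd163, the scavenger receptor for haemoglobin bound to haptoglobin, and Lyve1, a hyaluronan receptor shared by border macrophages and lymphatic vessels, had 33 to 226 and 30 to 179 reads per library. Cd163 ranged from 0.760 to 3.95 CPM, both extremes being lesioned controls. Lyve1 ranged from 0.586 to 3.36 CPM, the lowest in an unlesioned control and the highest in an unlesioned mutant. Neither was called in any comparison. The pooled lesion change was -0.19 (SE 0.45, edgeR adjusted p = 0.744) for Cd163 and -0.58 (SE 0.40, adjusted p = 0.249) for Lyve1.

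Arg1 (ENSMUSG00000019987, chr10:24915221-24927484, minus strand), which turns arginine into ornithine and urea, was at 1.38, 1.93 and 3.83 CPM in unlesioned mutants and 104.3, 56.0 and 30.7 CPM in lesioned mutants. The lesioned mutant mean was 26.7-fold the unlesioned one. In controls it was 407, 15.0 and 20.3 CPM without a lesion and 409, 432 and 128.9 CPM with one. Unlesioned control replicate 1 therefore lay among the lesioned controls, and the other 2 lay well below them. The log2 fold change was 1.13 (SE 0.94, edgeR adjusted p = 0.394) in controls, 4.74 (SE 1.10, adjusted p = 0.0537) in mutants and 2.94 (SE 0.71, adjusted p = 0.00836) over both. Without unlesioned control replicate 1 the control value was 4.22 and was called, with an adjusted p of 0.00314. In mutants Arg1 was called without that library or without unlesioned mutant replicate 1. The pooled call was kept in all 12 fits with a library left out, from 2.68 to 4.496.

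The same library was also high in Fn1, the gene of fibronectin, which monocytes and wound macrophages make. Fn1 was at 538 CPM in it, 88.6 and 141.1 CPM in its partners, and 852 to 1067 CPM in lesioned controls. Without this library 3 of the 10 genes were called in controls, but these were Mrc1, Arg1 and F13a1. In that fit 4124 of 33892 genes were called higher and 3277 lower in controls, against 1592 and 1558 of 31109 with all libraries.

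Nos2 (ENSMUSG00000020826, chr11:78920787-78960254, plus strand), the inducible nitric oxide synthase, was low throughout. Its levels were 14.8, 1.38 and 0.801 CPM in unlesioned controls and 1.01, 0.312 and 4.93 CPM after lesion, then 1.47, 0.675 and 1.77 CPM and 3.11, 0.617 and 0.144 CPM in mutants. The highest library was again unlesioned control replicate 1. The pooled log2 fold change was -0.73 (SE 0.82, edgeR adjusted p = 0.477), and without that library it was 0.48. Arg1 stood at 26.2 to 1384 times Nos2 in lesioned controls and at 33.5 to 213 times in lesioned mutants, on the CPM scale and without correction for length. In unlesioned controls the ratio was 10.9 to 27.5, which overlapped the lesioned controls, and in unlesioned mutants it was 0.94 to 2.86.

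The monocyte genes were Ly6c2 (ENSMUSG00000022584, chr15:75108158-75111970, minus strand), Plac8 (ENSMUSG00000029322, chr5:100553725-100572245, minus strand) and Chil3 (ENSMUSG00000040809, chr3:106147554-106167564, minus strand). Ly6c2 encodes a surface protein of inflammatory monocytes, Plac8 a small cysteine-rich protein of monocytes and granulocytes, and Chil3 the secreted lectin Ym1, which neutrophil precursors, monocytes and some macrophages release. The 3 genes were higher on the unlesioned side in controls by mean. Plac8 was at 371, 227 and 165 CPM in unlesioned controls and 123.9, 97.7 and 60.2 CPM at 4 dpl, groups that did not overlap. In mutants it was 87.3, 192 and 170.3 CPM, then 77.3, 183 and 76.2 CPM, which overlapped. The log2 fold change was -1.44 (SE 0.43, edgeR adjusted p = 0.0486) in controls, -0.42 (SE 0.42, adjusted p = 0.483) in mutants and -0.93 (SE 0.30, adjusted p = 0.0258) over both. The control call held in 3 of 12 fits with a library left out, namely without unlesioned mutant replicate 1 or lesioned mutant replicates 2 or 3, and it was lost without any of the 6 control libraries, unlesioned mutant replicates 2 or 3, or lesioned mutant replicate 1. The pooled call held in 4 of 12, without unlesioned control replicate 3, lesioned control replicate 1, unlesioned mutant replicate 1 or lesioned mutant replicate 2, and was lost without any of the other 8.

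Ly6c2 was at 1568, 944 and 549.8 CPM in unlesioned controls and 600.4, 386 and 311 CPM in lesioned ones. In mutants it was 416, 1478 and 904.7 CPM, then 336, 1090 and 433 CPM. The control change of -1.24 (SE 0.53, edgeR adjusted p = 0.122) did not pass, but it was -1.17 and called when blocked by the replicate number in the labels, with an adjusted p of 0.0240. The pooled change of -0.92 (SE 0.38, edgeR adjusted p = 0.0632) did not pass. It was called with that block, and with DESeq2 (-1.01, adjusted p = 0.0201). It was also called with at least 10 counts in every library (-1.21, edgeR adjusted p = 0.0426) and in 2 of 12 fits with a library left out. Chil3 was at 4318, 1985 and 1517 CPM, then 1571, 1535 and 1751 CPM in controls, and at 1284, 5347 and 2844 CPM, then 956, 5036 and 1482 CPM in mutants. Its change of -0.69 (SE 0.61, adjusted p = 0.429) in controls did not pass either. Without unlesioned control replicate 1 the control changes were -0.76 for Ly6c2 and -0.085 for Chil3. In mutants, lesioned replicate 2 stood far above its partners in all 3 genes.

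Neutrophil markers varied with these genes. Ngp, the neutrophilic granule protein, was at 19051, 13451 and 6227 CPM in unlesioned controls, 7390, 5245 and 5794 CPM in lesioned controls, 5900, 23130 and 12891 CPM in unlesioned mutants, and 4028, 20334 and 6870 CPM in lesioned mutants. As deviations from the group means over 12 libraries, its Pearson correlation was 0.96 with Ly6c2, 0.88 with Plac8 and 0.96 with Chil3, where each point carries the depth and cell composition of its library. Ly6c2 per unit of Ngp was 0.0803 ± 0.00923 (SD, n = 3) in unlesioned controls, 0.0695 ± 0.0143 in lesioned controls, 0.0682 ± 0.00371 in unlesioned mutants and 0.0666 ± 0.0152 in lesioned mutants. Plac8 per unit of Ngp was 0.0210 ± 0.00499 and 0.0153 ± 0.00432 in unlesioned and lesioned controls, and 0.0121 ± 0.00338 and 0.0131 ± 0.00538 in mutants. For Chil3 it was 0.206 ± 0.0513 and 0.269 ± 0.0492 in controls, and 0.223 ± 0.00709 and 0.234 ± 0.0163 in mutants. The 9 neutrophil markers had a median log2 fold change of -0.92 over both genotypes, beside -0.28 for all genes. Of these 9, edgeR called 0, with 2 at an unadjusted p under 0.05, DESeq2 called 4 and limma voom called 0. Of all 31109 genes, edgeR called 4423 higher and 5771 lower, with 16184 at an unadjusted p under 0.05. DESeq2 called 4068 of 50954 higher and 9736 lower, and limma voom 6382 and 8043 of 31109. Without lesioned mutant replicate 2, where 5632 of 34050 genes fell, 5 of the 9 markers fell and their median was -1.38. Without unlesioned mutant replicate 2 the median of the markers was -0.62. Their summed level was 45631 to 98743 CPM in unlesioned and 29391 to 36635 CPM in lesioned controls, 30715 to 120495 CPM in unlesioned and 22020 to 110319 CPM in lesioned mutants. The part of neutrophil RNA in the fall of Plac8 was not tested.

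**Figure D3:**
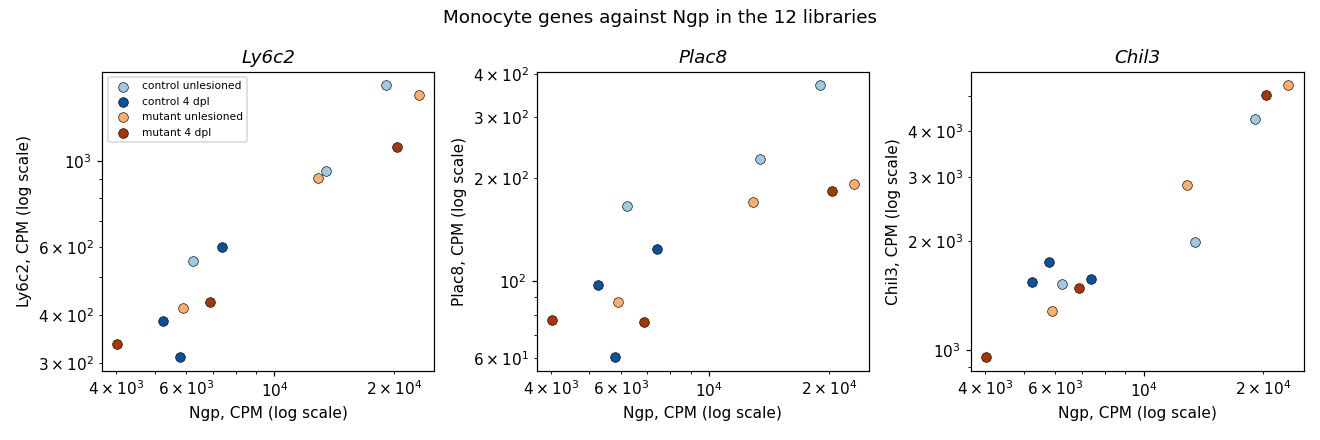
Ly6c2, Plac8 and Chil3 against Ngp, in CPM on log axes, with a point for each of the 12 libraries coloured by group. Lesioned mutant replicate 2, at 20334 CPM of Ngp, lies with the unlesioned libraries that are high in both genes.

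Promoter sequence is shown for 2 of the monocyte genes that varied together and, beside them, for Ms4a7. The lines give the 250 bases before the first start site in RefSeq (GRCm38.p6), 5′ to 3′ on the gene's strand, at chr15:75111972-75112221 for Ly6c2, chr3:106167565-106167814 for Chil3 and chr19:11336147-11336396 for Ms4a7, all on the minus strand. Capitals mark GAGGAA, the core bound by PU.1, the factor that directs myeloid cells, or a STAT dimer site, TTC and GAA with any 4 bases between, on either strand.
Ly6c2: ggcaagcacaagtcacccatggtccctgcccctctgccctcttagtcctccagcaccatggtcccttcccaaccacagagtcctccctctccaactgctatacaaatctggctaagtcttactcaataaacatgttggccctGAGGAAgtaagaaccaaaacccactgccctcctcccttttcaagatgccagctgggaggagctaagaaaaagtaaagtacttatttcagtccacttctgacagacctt
Chil3: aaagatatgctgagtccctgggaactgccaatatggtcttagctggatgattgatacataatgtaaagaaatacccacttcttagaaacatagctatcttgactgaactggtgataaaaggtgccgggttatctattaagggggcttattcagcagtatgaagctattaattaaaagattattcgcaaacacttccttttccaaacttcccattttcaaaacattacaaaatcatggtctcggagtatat
Ms4a7: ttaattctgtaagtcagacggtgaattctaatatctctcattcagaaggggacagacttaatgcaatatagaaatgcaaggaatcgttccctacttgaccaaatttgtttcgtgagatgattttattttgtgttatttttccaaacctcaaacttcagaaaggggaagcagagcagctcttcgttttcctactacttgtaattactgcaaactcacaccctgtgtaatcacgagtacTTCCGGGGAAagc
The Ly6c2 window held 1 PU.1 core and the Ms4a7 window 1 STAT dimer site, while the Chil3 window held neither. Of 32851 windows of this length, 23.3% held the PU.1 core and 5.85% the STAT dimer site. A C/EBP core, TTGC and AA with any 2 bases between, and an AP-1 site, TGA and TCA with any base between, were in none of these 3 windows and in 9.56% and 6.75% of all windows.

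Reads of close copies limit Ly6c2 and Chil3. Of the 100-base windows of Ly6c2 transcripts, 5.81% occur in Ly6c1, and 4.93% of those of Chil3 occur in Chil4 or Gm6522. The other 8 genes shared none. F13a1 exons overlap Gm30489 over 74 bases, and whether counting used strand is not given in the sources used here.

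By genotype, edgeR called 0 of the 10 genes on the unlesioned side, where 0% of all genes were called, and 0 at 4 dpl, also against 0%. At an unadjusted p under 0.05, Arg1 and Ms4a7 passed on the unlesioned side, against 5.22% of all genes, and Arg1 at 4 dpl, against 6.92%. DESeq2 called 0 of the 9 genes with a p in each, against 0.0628% and 0.428% of all genes, and limma voom 0 of the 10, against 0% and 0.109%. For Arg1 the log2 difference, mutant minus control, was -5.96 (SE 1.16, adjusted p = 0.693) without a lesion and -2.35 (SE 0.98, adjusted p = 0.625) at 4 dpl. Without unlesioned control replicate 1 the first was -2.90. The mutant libraries lay below the control ones on either side. For Ms4a7 the same differences were -1.68 (SE 0.73, adjusted p = 0.927) and -0.96 (SE 0.71, adjusted p = 0.884).

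The lesion response was not shown to differ between genotypes for any of the 10 genes, of which edgeR called 0 against 0% of all genes, with Arg1 alone under an unadjusted p of 0.05, as were 3.81% of all genes. DESeq2 called 0 of 9 and limma voom 0 of 10, each against 0% of all genes. For Arg1 the difference was 3.61 (SE 1.37, adjusted p = 0.9999), and it was 0.55 without unlesioned control replicate 1.

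Of 24 further border macrophage genes, 10 rose and 3 fell over both genotypes, with a median of 0.84 beside -0.28 for all genes. In controls alone 8 rose and 1 fell, against 5.12% and 5.01% of all genes. In mutants alone 0 rose and 0 fell, where 0.135% of all genes were called. The median was 0.96 in controls and 0.70 in mutants. Colec12, a scavenger receptor, rose by 2.50 (SE 0.29, edgeR adjusted p = 0.00190), Gas6, a ligand for receptors that clear dying cells, by 2.12 (SE 0.26) and Pf4, a chemokine of platelets and border macrophages, by 2.89 (SE 0.41). The 3 that fell were Cd209b, Cd209d and Cd209f, named because they are few and after their values were seen. Cd209f stayed under 1 CPM in each library. Of 20 further monocyte genes, 3 rose, where 14.2% of all genes rose and 18.6% fell, with a median of -0.05 beside -0.28 for all genes: Fn1 by 1.92 (SE 0.38), Thbs1, thrombospondin, by 1.83 (SE 0.44) and Itgam, an integrin of all myeloid cells, by 0.71 (SE 0.23). With each library left out, 10 to 13 border macrophage genes rose and 1 to 3 fell. The monocyte median was 0.38 without unlesioned control replicate 1 and -0.25 without lesioned mutant replicate 2.

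Classical and alternative activation genes each held 3 of 12 that rose, and 1 alternative gene fell, against 14.2% of all genes higher and 18.6% lower. The classical ones were Cd86, a costimulatory ligand, at 0.98 (SE 0.25), Irf5 at 0.82 (SE 0.22) and Tnf at 0.85 (SE 0.23), with a median of 0.48 beside -0.28 for all genes. Among alternative genes, Il4ra, the interleukin-4 receptor chain, rose by 1.07 (SE 0.26) and Egr2 by 0.95 (SE 0.24), while Chil4, a chitinase-like gene close to Chil3, fell by 1.66 (SE 0.38). That list had a median of 0.33, which was 0.12 without lesioned control replicate 2 and 0.59 without unlesioned mutant replicate 2. Of 12 further genes of arginine metabolism, 3 rose and 1 fell, against the same 14.2% and 18.6%. Oat, which uses ornithine, rose by 0.85 (SE 0.15), Asl, which makes arginine, rose by 0.48 (SE 0.14), and Nos1, the neuronal nitric oxide synthase, fell by 1.28 (SE 0.28). Without unlesioned control replicate 1, 6 classical and 5 alternative genes rose, and the classical median was 1.04. Without unlesioned control replicate 2 the classical median was 0.28. Without lesioned control replicate 2, 1 gene of arginine metabolism rose.

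**Figure D4:**
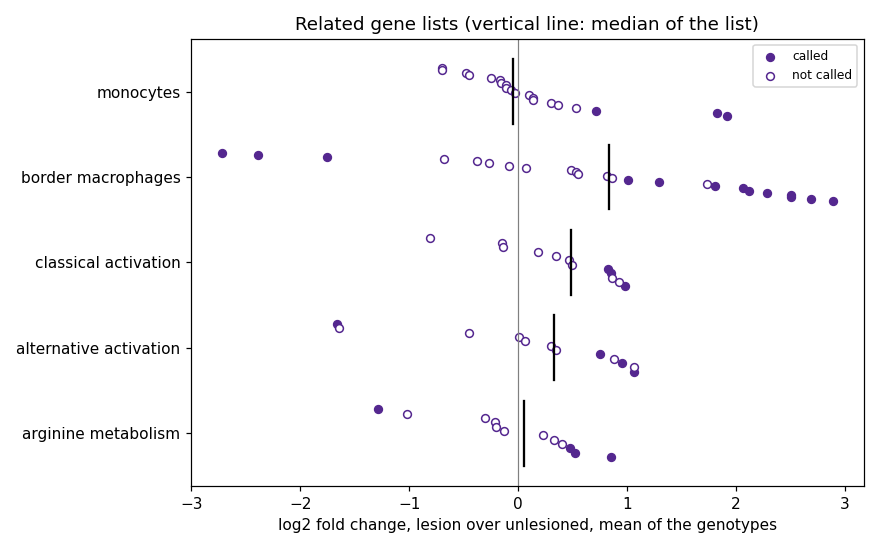
Log2 fold change over both genotypes for the genes of 5 related lists, a point for each gene, filled where called, with a line at each median. The border macrophage median is 0.84 and the monocyte median -0.05.

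The genes most like each of the 10 were ranked among 13616 genes by Pearson's r of log2 CPM deviations from group means over 12 libraries. Plac8 ran with Emb (0.99), Jaml (0.99) and Slc6a12 (0.98). Ly6c2 ran with Plbd1, Pilrb1 and Ankrd22 (each 0.99), and Chil3 with Ica1 (0.99), Lsm8 (0.98) and Dstn (0.98). Arg1 ran with S1pr2 (0.97), Ifit3b (0.96) and Cd244a (0.96), and Nos2 with Gm47088 (0.94), Ednra (0.91) and Cfap97 (0.89). Mrc1 ran with Pdia6 (0.98), Mroh1 (0.97) and Calr (0.96), and Ms4a7 with Ahnak2 (0.95), Cbr2 (0.95), itself on the border macrophage list, and Sgk1 (0.95). F13a1 ran with Tmem43, Gskip and Aifm2 (each 0.96), Lyve1 with E2f2, Hcls1 and Gm26762 (each 0.98), and Cd163 with Pde12 (0.92), Kat6b (0.91) and Prdm10 (0.90). Among the 10 themselves, Ly6c2 and Plac8 were closest (0.96), Lyve1 had 0.86 with Ly6c2 and 0.04 with Cd163, and Ms4a7 had -0.29 with Ly6c2. Outside the 10, Ms4a7 had 0.68 with P2ry12, which is on the list of resident microglia, and -0.37 with Ngp. Lyve1 had 0.84 with Ngp and -0.54 with P2ry12.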

How the data were processed

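Bulk RNA-seq libraries were made by the authors from spinal cord of P60 mice, 3 for each of 4 groups. Reads were aligned to mm10, and unique reads on exons of Ensembl genes were counted with featureCounts. The submitters' processing notes name STAR and DESeq2 (1.2.5) while the study's methods name BWA, and strand use in counting is not given in the sources used here. The deposited values are raw counts per gene, and exon lengths from the same files gave RPKM.

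Counts were tested with edgeR (4.0.16, R 4.3.3) by glmQLFit over all 12 libraries, with TMM scaling, filterByExpr and a mean per group, and p-values were adjusted by Benjamini-Hochberg over 31109 genes. SE is the log2 fold change over the root of F. Alternatives used DESeq2 (1.42.0), limma voom (3.58.1), other filters and scalings, a replicate block and each library left out. The fit was tested on simulated data. Replicates are separate samples by label, and where they were not separate mice the p-values measure technical spread only. No pair of replicates agreed within counting noise.

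The 10 genes and the lists were chosen with earlier results of these data known. Named genes were the 10 members, the 3 with the smallest pooled lesion p in each related list, and the 3 most like each member (mean log2 CPM of at least 1, prior count 2). Genes named outside this rule included Tet1, Ngp, P2ry12, Cd209b, Cd209d and Cd209f. Promoters came from RefSeq, which matched 7 of the 10 genes, not Arg1, Nos2 or Lyve1. Coordinates are 1-based.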

Additional observations from a re-analysis of the deposited data

How the results depend on the processing

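Arg1 and Ms4a7 kept their pooled call in each fit with a library left out. Of the 10 genes, 3 were called in the control lesion change, but 1 with at least 10 counts in every library, where Mrc1 (adjusted p 0.0643) and Ms4a7 (0.0619) were not, and 5 with limma voom. Of all genes in that comparison, 1592 rose and 1558 fell of 31109 in the main fit. With at least 10 counts these were 679 and 616 of 17528, and with limma voom 4836 and 4827 of 31109. Leaving out a library gave 0 to 3 calls among the 10 in controls, 0 to 2 in mutants and 2 to 5 over both. Of 32518 to 34050 genes tested in those fits, 1 to 4124 rose in controls, 0 to 2615 in mutants and 3326 to 6010 over both. Those that fell numbered 0 to 3277, 0 to 1883 and 4286 to 6863. In mutants, where 0 were called, 2 were called at an adjusted p under 0.10, with no filter, with edgeR's newer dispersion setting, with limma voom and with only the groups compared, and 1 with DESeq2. Of all 31109 genes, 1799 rose and 2191 fell at the looser limit, against 7 and 35 in the main fit. These were 317 and 630 of 51033 with no filter and 1374 and 3054 of 31109 with the newer dispersion setting. With only the groups compared they were 40 and 732 of 26415. Limma voom called 21.9% of all genes and DESeq2 10.4%. With no filter, 1 (Arg1) was called between genotypes on the unlesioned side. The other alternatives gave 0 calls by genotype and for the difference between lesion changes. The cause of these shifts was not tested. DESeq2 gave no p for Arg1, so its counts cover 9 genes. Cd163, Lyve1 and Nos2 had the fewest reads, down to 33, 30 and 8 in a library.

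Same-numbered lesioned and unlesioned libraries had correlated deviations of 0.32, 0.21 and 0.31 in controls and 0.20, 0.32 and 0.067 in mutants, and the labels do not say that a number marks a mouse, so the replicate block was an alternative. The 6 control libraries each correlated best with their own number, as did 3 of 6 mutant ones. With the replicate block by label number, 5 of the 10 genes were called in controls, 0 in mutants and 6 over both. Without it these counts were 3, 0 and 4. The 2 added were Ly6c2 and F13a1, in controls (adjusted p 0.0240 and 0.0361) and over both (-0.89 and 0.84, adjusted p 0.00662 and 0.0119). Of all 31109 genes, this block called 2337 higher and 1507 lower in controls, 4 and 0 in mutants, and 4863 and 4874 over both. Blocked by the number in the study, which pairs other libraries, 4, 0 and 4 of the 10 genes were called. Plac8 was then not called (adjusted p 0.158 in controls and 0.0567 over both), and Arg1 (4.59, adjusted p 0.0358) and F13a1 (0.0496) were in controls. Of all 31109 genes, that block called 761 higher and 241 lower in controls, 0 and 0 in mutants, and 2818 and 2482 over both.

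Other settings also turned a direction, in no case in a comparison where the gene was called. With at least 10 counts in every library it was Cd163 at -0.099 for the control lesion change and Lyve1 at -0.075 for the difference between the lesion changes. With the block by the number in the study it was Lyve1 at 0.31 for the control lesion change, and Ly6c2 at -0.46, Chil3 at -0.98, Lyve1 at -1.50 and Ms4a7 at -0.15 for the difference between the lesion changes. With no filter it was Nos2 at 0.087 for the mutant lesion change. With limma voom it was Cd163 at 0.19 for the mutant lesion change, Cd163 at 0.26 for the pooled lesion change, Ly6c2 at 0.035 for the unlesioned genotype difference, F13a1 at 0.28 for the unlesioned genotype difference, Cd163 at 0.025 for the genotype difference at 4 dpl, and Chil3 at -0.13, Nos2 at -0.23, Lyve1 at -0.31 and Ms4a7 at -0.49 for the difference between the lesion changes. With DESeq2 that difference was -0.063 for Lyve1. With RLE size factors that difference was -0.066 for Lyve1. With edgeR's newer dispersion setting that difference was -0.014 for Lyve1. Blocking on the label number put Lyve1 at -0.30 for that difference.

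With each library left out, direction turned in some fits, in each case in a comparison where the gene was not called. For the control lesion change, Nos2 ranged from -2.97 to 0.95 and Cd163 from -0.52 to 0.67. For the mutant lesion change, Chil3 ranged from -1.34 to 0.29 and Nos2 from -1.79 to 0.55. For the pooled lesion change, Nos2 ranged from -1.61 to 0.48 and Cd163 from -0.52 to 0.031. For the unlesioned genotype difference, Ly6c2 ranged from -0.63 to 0.32, Chil3 from -0.34 to 0.85, Nos2 from -2.64 to 0.26, Mrc1 from -0.41 to 0.84, Cd163 from -0.061 to 0.77, Lyve1 from -0.16 to 0.84 and F13a1 from -0.70 to 0.34. For the genotype difference at 4 dpl, Ly6c2 ranged from -0.17 to 0.83, Plac8 from -0.29 to 0.50, Chil3 from -0.41 to 1.01, Nos2 from -2.48 to 0.90, Cd163 from -0.85 to 0.35 and Lyve1 from -0.31 to 0.62. For the difference between the lesion changes, Ly6c2 ranged from -0.029 to 1.15, Chil3 from -0.68 to 0.96, Nos2 from -0.95 to 2.93, Lyve1 from -0.58 to 0.46 and Ms4a7 from -0.51 to 1.24.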
